A study of Mus musculus with 3 samples.

Results

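The 5 chemokine genes *Ccl1*, *Ccl3*, *Ccl4*, *Ccl5* and *Xcl1* were followed across lymphocytes of mouse tumors, 5 of the 32285 genes in the deposited count tables. They were chosen by name, and the cells were placed in classes by raw counts of unique molecular identifiers (UMIs, each standing for 1 captured transcript molecule) of other genes. Chemokines are small secreted proteins that draw leukocytes along a gradient through G-protein-coupled receptors. CCL3 and CCL5 bind CCR1. CCL5 is stored by cytotoxic lymphocytes, and CCL3 and CCL4 are made in quantity soon after an activating signal. XCL1 binds XCR1, the receptor of the conventional dendritic cells that cross-present antigen, and natural killer (NK) cells in tumors are a known source of XCL1 and CCL5 for these cells. CCL1 binds CCR8, a receptor carried by regulatory T cells (Treg) in tumors.

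Tumor-infiltrating cells were sorted from subcutaneous MC38-Ova tumors of WT C57BL/6 Kaede mice given an isotype control antibody, and 3 single-cell RNA libraries were made by the 10x 3′ method, 2 of Kaede-green cells and 1 of Kaede-red cells. MC38-Ova is a colon carcinoma line, by its name with ovalbumin added. Each mouse had received 250000 tumor cells, the tumor was exposed to violet light on day 13, and tissue was taken on day 15 and digested for 40 min at 37 °C. Kaede is a green fluorescent protein that turns red for good under violet light, so a Kaede-red cell (KR+) was in the tumor on day 13 and a Kaede-green cell (KG+) entered afterwards. The sort kept live CD45+ TER119- Kaede+ cells without those that were CD11b+ NK1.1-, so the myeloid cells among the sources and targets of chemokines are largely missing. The 3 groups of cells share the mouse strain, tumor, antibody and time, and no library without an isotype antibody was used here. The labels name the green libraries as biological replicates and do not say how many mice each library held.

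After limits on genes and mitochondrial share and removal of doublets, the Kaede-green 1 library held 9711 cells, Kaede-green 2 held 10617 and Kaede-red 10530, and between 20 and 36 cell barcodes were shared by any 2 libraries. NK cells had at least 1 UMI of *Ncr1* and at most 1 of *Cd3e* (2570, 2646 and 3161 cells in Kaede-green 1, Kaede-green 2 and Kaede-red, the order used throughout). CD8 T cells had at least 2 UMIs of *Cd3e* and at least 1 of both *Cd8a* and *Cd8b1* (2182, 3007 and 3890), Treg cells at least 2 of *Cd3e* and 1 of *Foxp3* (352, 647 and 655), and γδ T cells at least 1 of *Cd3e* and of *Cd163l1* (232, 131 and 256). Cells that met more than 1 of these rules (140, 224 and 145) were left out. Levels are in CPM, the UMIs of a gene per 1000000 UMIs of its class in a library, and shares of positive cells are those expected after thinning each cell to 2000 UMIs, since median depth differed (6090, 8158 and 17259 UMIs in NK cells). The markers of each class were high in it. They include genes of the class rule itself, so their sums describe the classes and are no independent check of them. The summed level of 7 NK markers was 8194, 6998 and 6786 CPM in NK cells, and that of 5 markers of the *Cd163l1*-positive, *Il17a*-expressing γδ T type was 4812, 3540 and 6110 CPM in γδ T cells.

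B cells do not normally express these genes at a high level and served as the level that free RNA can give. They were 163 and 79 cells in the green libraries, with a median of 4077 and 4845 UMIs, and only 2 in Kaede-red, where no background could be set. In them *Ccl5* reached 522 and 444 CPM and 30.2% and 41.0% of thinned cells, *Xcl1* 102 and 57.0 CPM and 5.16% and 11.6%, and *Ccl4* 55.0 and 32.6 CPM and 5.79% and 7.79%. *Ccl3* stood at 17.0 and 18.3 CPM and *Ccl1* at 0 (upper 95% Poisson limit 4.83) and 12.2 CPM. These levels rest in part on single cells. In Kaede-green 1, 1 B cell held 69.2% of the *Ccl3* UMIs (5.33 CPM without it), and 1 B cell of each green library held 22.1% and 31.2% of the *Ccl5* UMIs (411 and 312 CPM without it). A low share of *Ccl5*-positive cells therefore does not show expression in these libraries, and a level at or below that of B cells is not read as expression. In the green libraries this holds for 3 values of the classes, *Xcl1* in Treg cells of Kaede-green 1 (71.1 CPM) and *Ccl1* and *Ccl3* in γδ T cells of Kaede-green 2 (6.20 and 11.4 CPM). In Kaede-red, which has no background of its own, 5 values of these classes were below both green B-cell levels. They were *Ccl3* and *Ccl5* in NK cells and *Ccl3*, *Ccl4* and *Ccl5* in γδ T cells. Subsets of the NK cells with such values are named below. CPM also depends on depth, and red NK cells had a median of 17259 UMIs. Per cell they held 5.10 UMIs of *Ccl5* against 2.45 and 2.76 in green B cells, and 0.269 of *Ccl3* against 0.0798 and 0.114. The γδ T values were below those of B cells per cell too. Whether the values of Kaede-red are background was not tested. Fold changes that use any of these values may include background.

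4 of the 5 genes lie on chromosome 11 (GRCm38). *Ccl5* spans 83525778 to 83530518 on the minus strand, *Ccl3* 83647844 to 83649355 on the minus strand and *Ccl4* 83662584 to 83664683 on the plus strand. *Ccl3* and *Ccl4* face away from each other across 13228 bases with 0 annotated genes between them, and *Ccl5* is 117325 bases from *Ccl3* with 4 genes between. *Ccl1* (82176657 to 82305690, minus strand) is 1220087 bases from *Ccl5* with 55 genes between. This span is that of 1 noncoding transcript, and the 2 protein-coding transcripts of *Ccl1* start at 82179812, 1345965 bases from *Ccl5*. *Xcl1* is on chromosome 1 (164931644 to 164935527, minus strand), where the annotated gene *Gm20743* overlaps it on the other strand. The promoters of *Ccl1*, *Ccl3* and *Xcl1*, the 3 of the 5 genes matched in the RefSeq promoter table, are shown since they stand for 3 patterns given below: *Ccl1* was highest in CD8 T cells, *Xcl1* in NK cells, and *Ccl3* went with *Ccl4*. Each is the 250 bases before the start of the gene in RefSeq (GRCm38.p6), which is at 82179812 for *Ccl1*, 83649378 for *Ccl3* and 164935522 for *Xcl1*, with capitals marking matches to NF-κB-type (GGG and CC with 5 free bases between them), NFAT-type (GGAAA) or RUNX-type (TGTGGT) letters on either strand.

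Ccl1, chr11:82179813-82180062, minus strand: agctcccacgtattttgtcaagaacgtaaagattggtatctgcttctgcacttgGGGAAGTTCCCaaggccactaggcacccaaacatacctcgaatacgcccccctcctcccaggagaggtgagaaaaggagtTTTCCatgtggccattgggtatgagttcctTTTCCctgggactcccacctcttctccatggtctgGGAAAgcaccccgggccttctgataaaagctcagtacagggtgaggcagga
Ccl3, chr11:83649379-83649628, minus strand: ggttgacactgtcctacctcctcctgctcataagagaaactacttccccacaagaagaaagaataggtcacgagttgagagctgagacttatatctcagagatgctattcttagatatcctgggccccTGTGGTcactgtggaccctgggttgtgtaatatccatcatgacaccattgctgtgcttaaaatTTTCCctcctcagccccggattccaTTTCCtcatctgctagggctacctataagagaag
Xcl1, chr1:164935523-164935772, minus strand: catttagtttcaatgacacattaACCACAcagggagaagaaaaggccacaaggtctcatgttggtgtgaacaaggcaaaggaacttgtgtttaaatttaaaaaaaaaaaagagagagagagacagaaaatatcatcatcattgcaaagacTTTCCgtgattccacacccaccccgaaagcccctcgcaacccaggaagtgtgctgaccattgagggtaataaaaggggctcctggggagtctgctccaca

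*Ccl1* held 2 overlapping NF-κB-type matches, 1 on each strand, and 3 NFAT-type matches. *Ccl3* held 2 NFAT-type matches and 1 RUNX-type match, and *Xcl1* held 1 of each of those types. AP-1-type (TGANTCA), CRE-type (TGACGTCA), T-box-type (AGGTGTGA) and ETS-type (CCGGAAGT) letters had 0 matches in these 3 windows. Of 32851 promoter windows of this length, 45.8% held the NF-κB-type, 55.6% the NFAT-type and 14.0% the RUNX-type letters, against 6.75% for the AP-1-type, 1.55% for the CRE-type, 1.12% for the T-box-type and 2.88% for the ETS-type, so the matches are common letters and are given as description.

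*Ccl5* was the most abundant of the 5 transcripts in green NK cells and in CD8 T cells. In NK cells it stood at 5998, 4018 and 260 CPM, in CD8 T cells at 4329, 3590 and 1427 CPM, in γδ T cells at 1348, 1370 and 269 CPM and in Treg cells at 571, 721 and 657 CPM. The 2 cytotoxic classes did not differ beyond the spread of class differences over the libraries (log2 fold change of NK against CD8 T -0.21 ± 0.60 SE, edgeR adjusted p = 0.859). CD8 T cells were above Treg cells (1.99 ± 0.62, 3.98-fold, edgeR adjusted p = 0.0356) and above γδ T cells (1.89 ± 0.61, 3.72-fold, edgeR adjusted p = 0.0395). NK cells passed against Treg cells by a small margin (1.78 ± 0.65, edgeR adjusted p = 0.0496) and missed against γδ T cells (1.69 ± 0.61, edgeR adjusted p = 0.0569). Treg and γδ T cells were not told apart (-0.10 ± 0.62, edgeR adjusted p = 0.931), and the Treg level in green cells was close to the 522 and 444 CPM of B cells. The 3 *Ccl5* calls were lost without either Kaede-green library (edgeR adjusted p from 0.0941 to 0.441) and when cells of more than 1 class were kept (edgeR adjusted p from 0.06 to 0.137). Without pairing by library both calls of CD8 T cells were lost (edgeR adjusted p of 0.0647 and 0.141). Without TMM factors NK against Treg (edgeR adjusted p = 0.0724) and CD8 T against γδ T (0.0518) were lost, and NK against Treg also with *Cd3e* at 0 in the NK rule (0.0506) and in a fit of only the 2 classes (0.233). NK cells passed against γδ T cells with a filter of 1 UMI (edgeR adjusted p = 0.000905) and in a fit of only the 2 classes (0.00236). Without Kaede-red, NK cells passed against γδ T cells (1.98, edgeR adjusted p = 1.38e-05) and Treg cells were below γδ T cells (-1.07, edgeR adjusted p = 0.000826). A thinned NK cell carried a *Ccl5* UMI in 83.3%, 80.1% and 24.8% of cases and a CD8 T cell in 75.9%, 77.2% and 49.6%. The Kaede-red NK share was below that of green B cells, and those NK cells held 5.10 UMIs of *Ccl5* per cell against 45.6 and 42.1 in the green libraries.

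**Figure D1:**
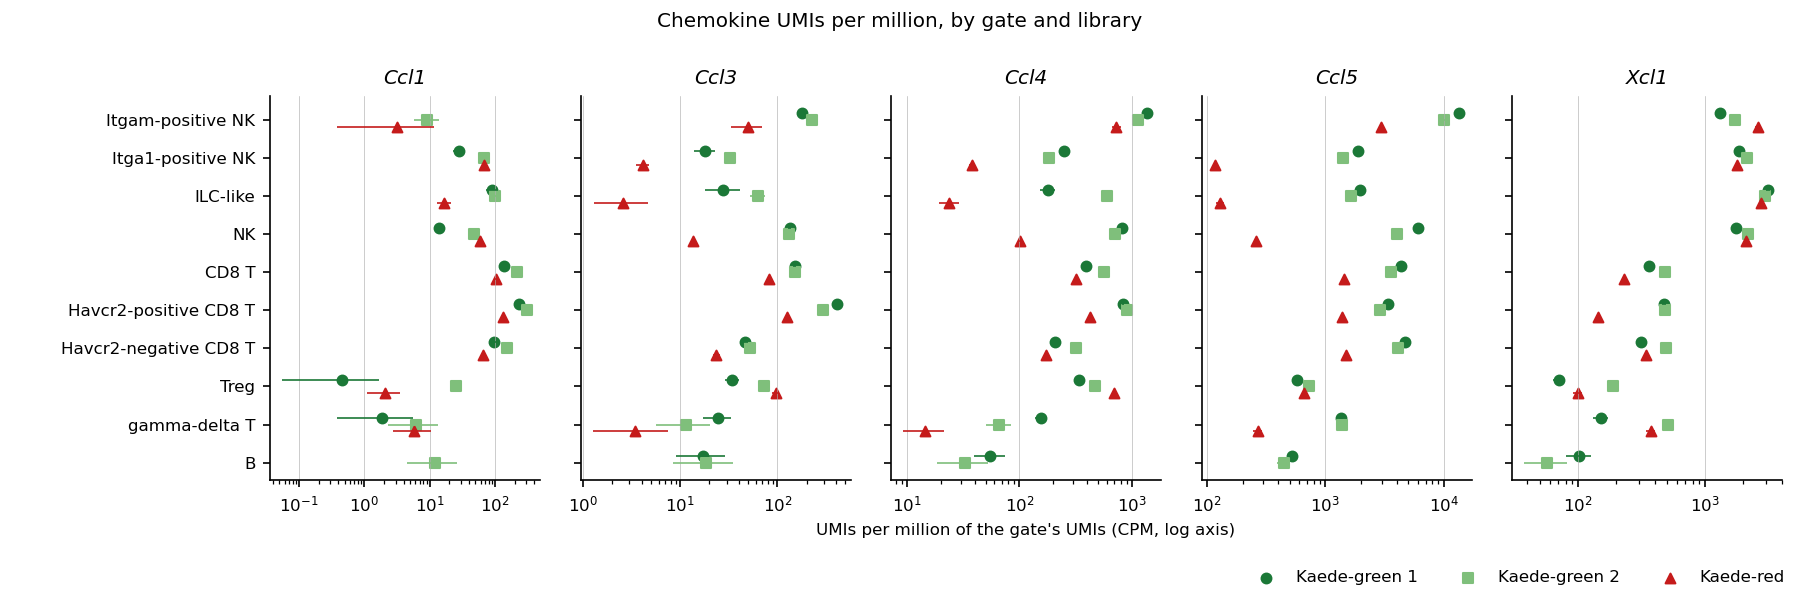
Level of each chemokine gene (CPM, log axis) by class and library, with bars for the exact 95% Poisson interval of the summed UMIs, which covers counting error only. B cells of Kaede-red (2 cells) and values of 0 (*Ccl1* in *Itgam*-positive NK and B cells of Kaede-green 1) are not drawn. The Kaede-red point for *Ccl5* in NK cells sits at 260 CPM, below both green points at 5998 and 4018, while the 3 *Xcl1* points of NK cells lie between 1749 and 2166.

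*Ccl3* and *Ccl4*, the genes of the macrophage inflammatory proteins MIP-1α and MIP-1β, were both lowest in γδ T cells in each library. By mean level *Ccl4* was highest in NK cells and *Ccl3* in CD8 T cells. *Ccl4* stood at 828, 717 and 100 CPM in NK cells, 389, 565 and 318 CPM in CD8 T cells, 337, 468 and 694 CPM in Treg cells and 157, 66.1 and 14.3 CPM in γδ T cells. *Ccl3* was the lower of the pair everywhere, at 134, 131 and 13.7 CPM in NK cells, 151, 152 and 82.0 CPM in CD8 T cells, 33.9, 73.4 and 96.6 CPM in Treg cells and 24.3, 11.4 and 3.44 CPM in γδ T cells. Both genes were low in γδ T cells, where Kaede-green 2 was below the B-cell level for *Ccl3* (18.3 CPM). NK cells exceeded γδ T cells in *Ccl4* by 2.86 ± 0.70 on the log2 scale (7.28-fold, edgeR adjusted p = 0.00970) and in *Ccl3* by 2.75 ± 0.84 (edgeR adjusted p = 0.0285). CD8 T cells exceeded them in *Ccl4* by 2.71 ± 0.71 (edgeR adjusted p = 0.0160) and in *Ccl3* by 3.39 ± 0.83 (edgeR adjusted p = 0.0114), and Treg cells by 3.03 ± 0.73 (edgeR adjusted p = 0.00948) and 2.59 ± 0.87 (edgeR adjusted p = 0.0423). None of the 3 pairs among NK, CD8 T and Treg cells passed for either gene, with edgeR adjusted p from 0.388 to 0.903. Without Kaede-green 2 the 6 calls against γδ T cells were lost (edgeR adjusted p from 0.0624 to 0.158), and without Kaede-green 1 that of *Ccl3* in NK cells (0.0623). When cells of more than 1 class were kept, *Ccl3* of NK cells (1.51, edgeR adjusted p = 0.113), *Ccl4* of CD8 T cells (1.58, edgeR adjusted p = 0.0824) and *Ccl3* of Treg cells (1.46, edgeR adjusted p = 0.123) were no longer called against γδ T cells, and *Ccl3* of Treg cells was also lost without pairing by library (edgeR adjusted p = 0.0570). Without Kaede-red, NK cells were above Treg cells in *Ccl3* (1.39, edgeR adjusted p = 0.000577) and *Ccl4* (1.07, edgeR adjusted p = 0.00499) and above CD8 T cells in *Ccl4* (0.72, edgeR adjusted p = 0.0422), and CD8 T cells were above Treg cells in *Ccl3* (1.57, edgeR adjusted p = 0.000433). Relative to *Ccl5*, Treg cells were rich in *Ccl4*. Per 1000 *Ccl5* UMIs they held 589, 650 and 1056 *Ccl4* UMIs, against 105 and 73.4 in green B cells and 116, 48.3 and 53.2 in γδ T cells. NK cells held 138, 178 and 386 and CD8 T cells 89.8, 157 and 223. The part of free RNA in these ratios was not tested.

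*Xcl1* was the gene that set NK cells apart. Its level was 1749, 2166 and 2097 CPM in NK cells, 359, 486 and 228 CPM in CD8 T cells, 151, 511 and 373 CPM in γδ T cells and 71.1, 189 and 99.3 CPM in Treg cells. NK cells were 5.97-fold above CD8 T cells (log2 2.58 ± 0.32, edgeR adjusted p = 0.000115), 7.06-fold above γδ T cells (2.82 ± 0.33, edgeR adjusted p = 7.06e-05) and 20.6-fold above Treg cells (4.36 ± 0.35, edgeR adjusted p = 2.31e-06). CD8 T and γδ T cells did not differ beyond their spread (0.24 ± 0.31, edgeR adjusted p = 0.606), and both were above Treg cells (1.79 ± 0.31 for CD8 T cells, edgeR adjusted p = 0.00158). Treg cells were 2.92-fold below γδ T cells (-1.54 ± 0.32, edgeR adjusted p = 0.00386), a call lost with doublets kept (-0.91, edgeR adjusted p = 0.0610). A thinned NK cell carried *Xcl1* in 63.2%, 71.4% and 73.8% of cases, a CD8 T cell in 20.2%, 29.2% and 16.5%, and a Treg cell in 6.13%, 12.7% and 7.42%, the last near the 5.16% and 11.6% of green B cells.

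*Ccl1* was a gene of few cells, with CD8 T cells on top. It stood at 137, 218 and 104 CPM in CD8 T cells and at 13.9, 48.0 and 59.3 CPM in NK cells. CD8 T cells were 3.95-fold above NK cells (log2 fold change of NK against CD8 T -1.98 ± 0.58, edgeR adjusted p = 0.0286), 21.9-fold above Treg cells (4.45 ± 0.69, edgeR adjusted p = 0.000694) and above γδ T cells (5.27 ± 0.93, edgeR adjusted p = 0.00182). The call between CD8 T and NK cells was lost without the library Kaede-green 1 (edgeR adjusted p = 0.239), without pairing by library (0.113) and by DESeq2 (adjusted p = 0.0862). γδ T cells held only 3, 6 and 10 UMIs of *Ccl1*. Treg cells held 2, 218 and 13, and 1 cell of Kaede-green 2 carried 97, which is 44.5% of the UMIs of that library. NK cells were above both by the test (2.47 ± 0.68 against Treg, edgeR adjusted p = 0.0133; 3.29 ± 1.00 against γδ T, edgeR adjusted p = 0.0282). When cells of more than 1 class were kept, the NK to γδ T value was -0.030, the NK to Treg value 0.38 (edgeR adjusted p = 0.674) and the CD8 T to γδ T value 1.81 (edgeR adjusted p = 0.0895), so these 3 calls were lost. The NK to γδ T call was also lost without Kaede-red (edgeR adjusted p = 0.0592), with doublets kept (1.37, edgeR adjusted p = 0.225) and with *Cd3e* at 0 in the NK rule (0.0725), and the NK to Treg call without pairing by library (0.0539) and in a fit of only the 2 classes (0.0590).

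Over the 5 genes, NK against CD8 T cells gave 2 calls beside 24.8% of all genes tested, NK against Treg 3 beside 39.6%, NK against γδ T 4 beside 30.6%, CD8 T against Treg 3 beside 24.6%, CD8 T against γδ T 4 beside 27.5% and Treg against γδ T 3 beside 30.9%. A class can hold a low level because fewer of its cells transcribe the gene or because each holds less RNA of it, and sums over cells do not tell these apart.

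The distribution over cells differed from gene to gene. *Ccl3* and *Ccl4* were concentrated in few cells: the top 10% of NK cells held 92.8%, 93.1% and 100% of all *Ccl3* UMIs and 77.6%, 82.8% and 93.3% of all *Ccl4* UMIs. For *Ccl5* this share was 36.1% and 39.0% in green NK cells and 74.6% in Kaede-red NK cells. For *Xcl1* it was 54.8%, 51.9% and 48.9%, nearly the same in each library. If the *Ccl4* UMIs of NK cells had been spread evenly by chance, 98.4%, 98.9% and 76.5% of the cells would have held at least 1, and 46.9%, 54.4% and 22.7% did. In CD8 T cells all but *Ccl5* were concentrated, with 94.2% to 99.0% of *Ccl1*, 92.8% to 98.0% of *Ccl3*, 75.0% to 86.2% of *Ccl4* and 74.7% to 82.6% of *Xcl1* in the top 10% of cells. Single cells could hold many UMIs: 1 CD8 T cell of Kaede-green 2 had 946 of *Ccl4*, and 1 NK cell of that library had 477 of *Ccl1*, 35.9% of the UMIs of that gene in its class. *Ccl1* is therefore read from levels and not from shares. In Kaede-green 2 its thinned share was 1.47% in NK cells, below the 2.82% of B cells, though its level in NK cells was 48.0 against 12.2 CPM.

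**Figure D2:**
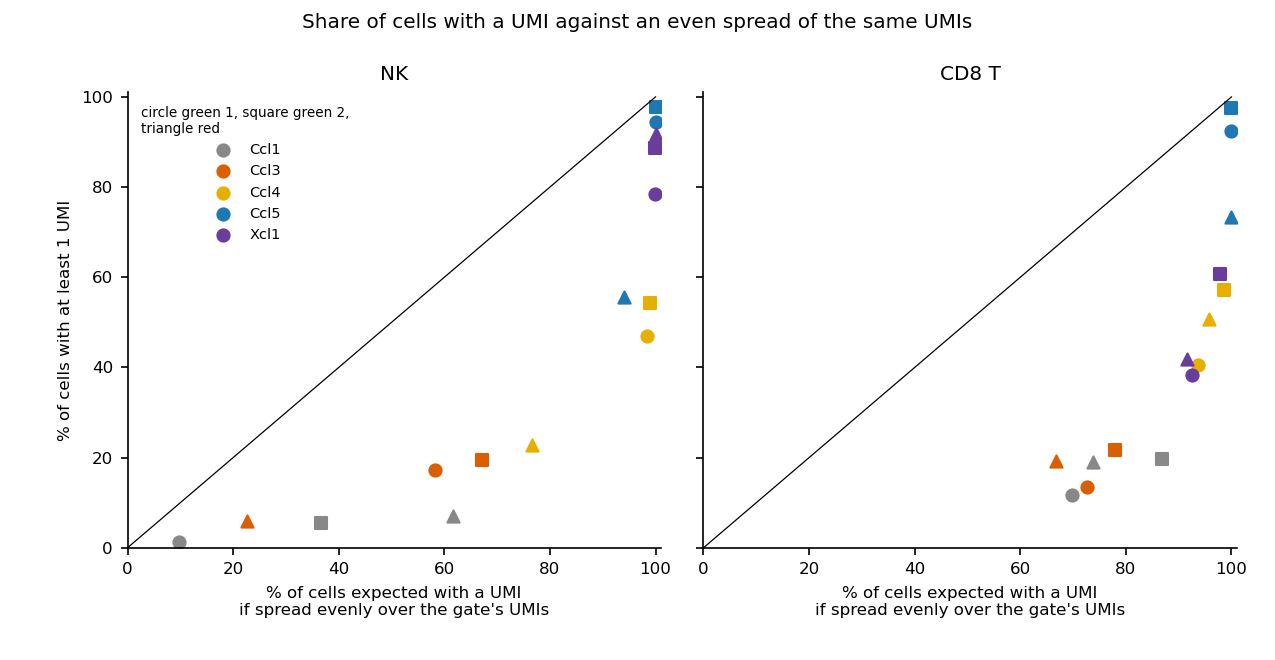
Observed share of cells with at least 1 UMI (vertical axis, %) against the share expected if the UMIs of the class were spread evenly over its cells (horizontal axis, %), for NK and CD8 T cells, 1 point per gene and library. Points far below the diagonal are genes held by few cells. *Ccl4* in NK cells of Kaede-green 1 was seen in 46.9% of cells where an even spread gives 98.4%.

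Kaede colour separated the genes within NK cells. By CPM *Ccl5* was 23.1-fold and 15.5-fold higher in Kaede-green 1 and Kaede-green 2 than in Kaede-red, *Ccl3* 9.77-fold and 9.58-fold, and *Ccl4* 8.25-fold and 7.14-fold. Per cell the deeper red NK cells held 5.10 UMIs of *Ccl5*, 0.269 of *Ccl3* and 1.97 of *Ccl4*. Green NK cells held 45.6 and 42.1 of *Ccl5*, 1.02 and 1.37 of *Ccl3*, and 6.30 and 7.51 of *Ccl4*. The differences per cell were thus smaller than those in CPM. In CPM *Xcl1* moved little, from 1749 and 2166 in green to 2097 in red cells, within the difference between the green libraries. Per cell, *Xcl1* came to 13.3, 22.7 and 41.2 UMIs. On that scale it was higher in the deeper red NK cells by more than the green libraries differed. *Ccl1* was higher in red cells by 2.09 on the log2 scale than in Kaede-green 1 and by 0.30 than in Kaede-green 2, and the green libraries differed by 1.79. With 1 Kaede-red library there is no replicate spread and no test, and a difference is called beyond the green difference when both log2 ratios have 1 sign and both exceed the log2 ratio of the green libraries. By that rule on CPM 3 of the 5 genes were lower in red NK cells and 0 higher. Of the 6764 genes compared 45.5% were lower and 22.2% higher, so the rule alone is not particular to these genes. Their size was: counted from the lowest log2 ratio of red to mean green, *Ccl5* (-4.24) ranked 2, *Ccl3* (-3.27) ranked 7 and *Ccl4* (-2.94) ranked 8 of the 6764. The median of all genes was -0.15 on that scale.

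In CD8 T cells the differences between colours were smaller. The log2 ratio of red to mean green was -1.47 for *Ccl5*, -0.88 for *Ccl3* and -0.87 for *Xcl1*, all beyond the green difference, beside 24.4% of genes lower and 26.4% higher by the rule. *Ccl4* and *Ccl1* were not, since their ratio to Kaede-green 1 (-0.29 and -0.40) was smaller than the green difference (0.54 and 0.67). By UMIs per cell *Xcl1* was not beyond the green difference either, at 4.02, 6.30 and 3.68. Red CD8 T cells kept 1427 CPM of *Ccl5* and 49.6% positive thinned cells, against 260 CPM and 24.8% in red NK cells. In the green libraries NK cells were the higher class by CPM, at 5998 and 4018 against 4329 and 3590. By thinned share they were also higher, at 83.3% and 80.1% against 75.9% and 77.2% positive cells. Per cell the order was reversed, with 45.6 and 42.1 UMIs of *Ccl5* in green NK cells against 48.5 and 46.6 in green CD8 T cells. The difference between classes in the effect of colour was not tested. γδ T cells resembled NK cells, with *Ccl4* at -2.81, *Ccl5* at -2.34 and *Ccl3* at -2.20 (16.8% of genes lower and 15.8% higher by the rule). Their counts were small, with 252, 64 and 25 UMIs of *Ccl4* and 39, 11 and 6 of *Ccl3*, and when cells of more than 1 class were kept the *Ccl3* value was 0.52. In Treg cells *Ccl5* was level (0.03), and *Ccl4* was 694 CPM in red cells against 337 and 468 CPM, a log2 ratio of 0.81 and the only member beyond the green difference (24.8% of genes higher and 20.3% lower). Without the cell with the most UMIs in each library *Ccl4* was no longer beyond the green difference.

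**Figure D3:**
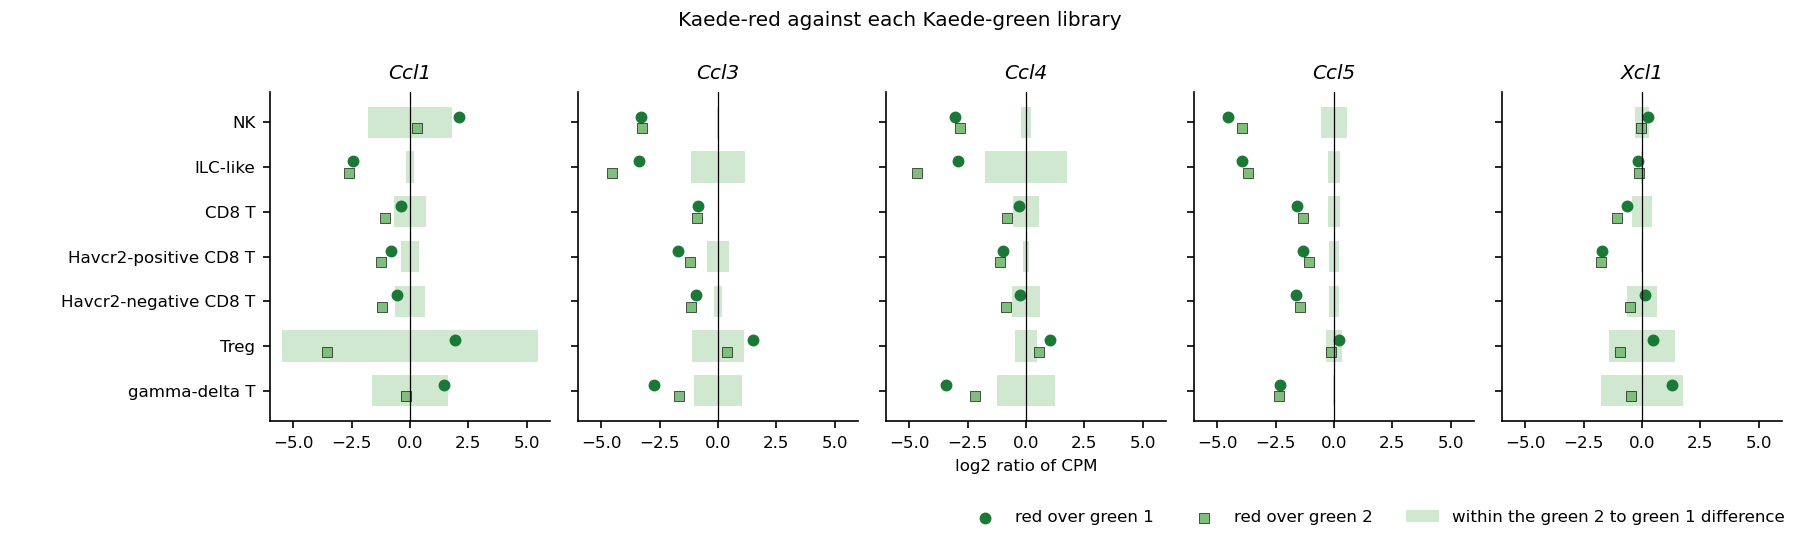
Log2 ratio of Kaede-red to each Kaede-green library for the 5 genes in each class (points), with a band for the size of the difference between the green libraries. Points left of 0 and outside the band are lower in red cells by more than the green libraries differ, as for *Ccl5* in NK cells at -4.53 and -3.95.

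Cells of the NK rule with at least 2 UMIs of *Rora* and none of *Eomes* (91, 158 and 249 cells) are called ILC-like here, for innate lymphoid cells that lack the NK factor EOMES. 5 ILC markers summed to 795, 746 and 563 CPM in them and 191, 197 and 131 CPM in the other NK cells. *Rora* of the rule is among these markers, so part of that difference was set by the rule. The list is not particular to these cells. It summed to 695, 796 and 823 CPM in CD8 T cells, 722, 722 and 992 CPM in Treg cells and 1943, 1752 and 2206 CPM in γδ T cells. They had more *Xcl1* than the other NK cells and less *Ccl3*, *Ccl4* and *Ccl5*. *Xcl1* was 3099, 2977 and 2738 CPM in ILC-like cells and 0.54 ± 0.10 above the other NK cells on the log2 scale (1.45-fold, edgeR adjusted p = 0.00515). *Ccl5*, at 1974, 1654 and 129 CPM, was 2.67-fold lower (-1.42 ± 0.10, edgeR adjusted p = 6.15e-07). *Ccl3*, at 27.6, 63.3 and 2.61 CPM, was 3.32-fold lower (-1.73 ± 0.21, edgeR adjusted p = 0.000149), and *Ccl4*, at 179, 598 and 23.7 CPM, was 2.89-fold lower (-1.53 ± 0.29, edgeR adjusted p = 0.00468). Thus 4 of the 5 genes passed, beside 5.33% of all genes tested. *Ccl1*, at 90.6, 102 and 16.6 CPM, did not pass (0.65 ± 0.60, edgeR adjusted p = 0.729). Of the 598 CPM of *Ccl4* in Kaede-green 2, 59.0% came from 1 cell with 719 UMIs, and the level without it was 246 CPM. The fit pairs the classes of 1 library, and without that pairing the 4 calls were lost (edgeR adjusted p from 0.213 to 0.962). By DESeq2 the *Ccl4* call was lost (-1.64, adjusted p = 0.147). Without Kaede-green 1 the *Xcl1* call was lost (edgeR adjusted p = 0.0603), and without Kaede-red *Ccl1* was higher in ILC-like cells (1.79, edgeR adjusted p = 8.42e-19), as it was with a filter of 1 UMI (0.57, edgeR adjusted p = 0.00339). The fit without Kaede-red holds 2 libraries, so its small p-value leans on a spread estimated over all genes. These *Ccl1* values rest in part on single cells. In Kaede-green 1 and Kaede-green 2, 1 ILC-like cell held 42.7% and 65.7% of the *Ccl1* UMIs of its class. Without the top cell of each class the levels were 52.6 and 35.1 CPM, against 7.46 and 25.2 CPM in the other NK cells. Red ILC-like cells were lower than green ones in all 5 genes by the rule (*Ccl3* -3.96, *Ccl5* -3.81, *Ccl4* -3.78, *Ccl1* -2.53 and *Xcl1* -0.15), beside 23.1% of genes lower and 12.4% higher. The red ILC-like levels of *Ccl3*, *Ccl4* and *Ccl5* were below both green B-cell levels in CPM. Per cell this held for *Ccl3* and *Ccl5* (0.0442 and 2.19 UMIs) and not for *Ccl4* (0.402). Fold changes and ratios that use these values may include background, which was not tested. The *Xcl1* value is a small difference set against green libraries that differed by only -0.06, and thinned shares were 82.8%, 87.6% and 85.7%.

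Among the other NK cells, those with *Itga1* and no *Itgam* were compared with those with *Itgam* and no *Itga1*. *Itga1* encodes CD49a, an integrin of tissue-resident cells, and *Itgam* encodes CD11b, carried by mature circulating NK cells. The *Itgam*-positive cells were 424, 297 and 75 and the *Itga1*-positive cells 291, 438 and 1412. *Ccl5* was 13340, 10047 and 2963 CPM in *Itgam*-positive and 1894, 1397 and 118 CPM in *Itga1*-positive cells, lower in the latter within every library and by 10.0-fold in the fit (-3.33 ± 0.31, edgeR adjusted p = 5.46e-05). *Ccl4* was 1372, 1129 and 732 against 251, 184 and 37.8 CPM (-2.99 ± 0.28, edgeR adjusted p = 6.25e-05). *Ccl3* was 181, 228 and 49.3 against 17.8, 32.8 and 4.11 CPM (-3.05 ± 0.16, edgeR adjusted p = 2.15e-06). *Ccl1* went the other way, at 0 (upper 95% Poisson limit 1.42), 9.15 and 3.18 against 27.8, 67.4 and 66.7 CPM (3.66 ± 0.34, edgeR adjusted p = 5.74e-05). This fitted value rests on libraries with few or no *Ccl1* UMIs in *Itgam*-positive cells. It also rests in part on single cells. In each library 1 *Itga1*-positive cell held 48.5%, 49.8% and 21.6% of the *Ccl1* UMIs of its class. Without that cell the levels were 14.31, 34.02 and 52.41 CPM. The green *Itgam*-positive levels of *Ccl1* were at or below those of B cells (0 and 12.2 CPM) and are not read as expression. *Xcl1* did not pass (0.17 ± 0.16, edgeR adjusted p = 0.457), so 4 of 5 genes were called beside 34% of all genes tested. Without Kaede-red it passed (0.50, edgeR adjusted p = 5.55e-07), and also with a filter of 1 UMI (0.23, edgeR adjusted p = 0.00983). The *Itga1*-positive cells were deeper (median 9116, 11538 and 25055 against 5345, 6712 and 6658 UMIs). Per cell they held more *Xcl1* in each library, at 23.7, 32.4 and 45.8 against 8.07, 13.3 and 21.8 UMIs. 8 myeloid markers summed to 83.4, 548 and 320 CPM in *Itgam*-positive and 76.6, 94.3 and 45.1 CPM in *Itga1*-positive cells, and their part in the result was not tested. *Ccl3*, *Ccl4* and *Ccl5* were lower in red cells inside both subsets. Among *Itga1*-positive cells the log2 ratio of red to mean green was -3.79 for *Ccl5*, -2.56 for *Ccl3* and -2.51 for *Ccl4* (35.2% of genes lower and 16.6% higher by the rule). Among *Itgam*-positive cells it was -1.97, -2.02 and -0.76, with *Xcl1* higher by 0.79 (33.4% lower and 19.9% higher). In red *Itga1*-positive cells *Ccl5* came to 3.05 UMIs per cell at a median depth of 25055 UMIs, against 2.45 and 2.76 UMIs per B cell in the green libraries at a median of 4077 and 4845. In CPM the *Ccl3* and *Ccl5* levels of these red cells were below both green B-cell levels, and their part of background was not tested.

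CD8 T cells were divided by *Havcr2*, which encodes TIM-3, a receptor of exhausted and strongly stimulated T cells, into positive (446, 1026 and 1851) and negative (1736, 1981 and 2039) cells. *Ccl3* showed the largest difference of the 5 genes, at 407, 292 and 126 CPM in positive and 46.1, 52.1 and 23.6 CPM in negative cells (log2 2.63 ± 0.12, 6.19-fold, edgeR adjusted p = 1.04e-05). *Ccl4* was 836, 912 and 426 against 207, 318 and 174 CPM (1.56 ± 0.11, 2.95-fold, edgeR adjusted p = 3.89e-05). *Ccl1* was 234, 308 and 132 against 97.3, 154 and 66.1 CPM (1.04 ± 0.07, 2.05-fold, edgeR adjusted p = 3.23e-05). *Ccl5* was slightly lower in positive cells by CPM, at 3395, 2916 and 1371 against 4709, 4068 and 1502 (-0.41 ± 0.08, edgeR adjusted p = 0.00482). The positive cells were deeper (median 12549.5, 12123.5 and 17365 against 8272.5, 9211 and 11012 UMIs). Per cell they held 53.9, 46.1 and 26.5 UMIs of *Ccl5* against 47.2, 46.9 and 19.8, so the lower value does not hold on that scale. *Xcl1* did not pass (-0.27 ± 0.26, edgeR adjusted p = 0.470; with a filter of 1 UMI -0.28, edgeR adjusted p = 9.12e-05), with 474, 481 and 143 against 312, 489 and 342 CPM: it was higher in positive cells of Kaede-green 1 and lower in those of Kaede-red. 4 of the 5 genes were called beside 28.5% of all genes tested. Without the pairing of classes by library, the calls of *Ccl1*, *Ccl4* and *Ccl5* were lost (edgeR adjusted p of 0.147, 0.0554 and 0.547), and that of *Ccl5* also without Kaede-green 2 (edgeR adjusted p = 0.0751). In red *Havcr2*-positive cells all 5 genes were below green by the rule, with *Xcl1* at -1.74, *Ccl3* at -1.45, *Ccl5* at -1.20, *Ccl4* at -1.03 and *Ccl1* at -1.03 (21.6% of genes lower and 16% higher). In *Havcr2*-negative cells *Ccl5* (-1.54) and *Ccl3* (-1.05) were (22.8% lower and 27.3% higher), and *Xcl1* was -0.19.

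**Figure D4:**
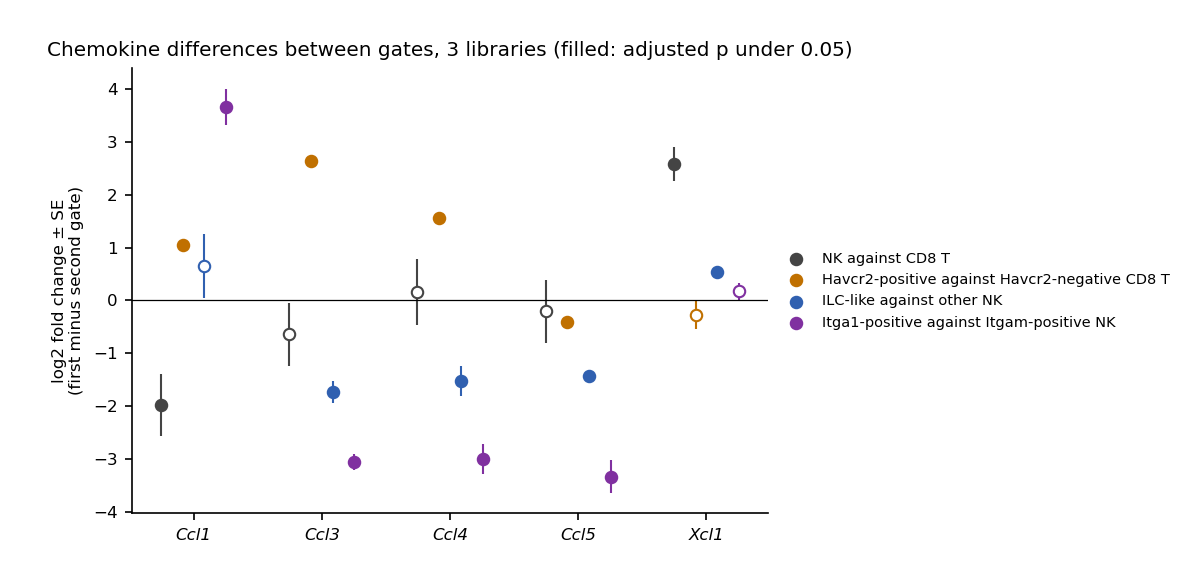
Log2 fold change ± SE of the 5 genes in 4 comparisons of classes (edgeR quasi-likelihood fit on sums of 3 libraries, library as a block), with filled points where the adjusted p is under 0.05. *Xcl1* is the gene with the largest positive value for NK against CD8 T cells (2.58), and *Ccl3*, *Ccl4* and *Ccl5* lie between -3.33 and -2.99 for *Itga1*-positive against *Itgam*-positive NK cells.

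*Ccl3* and *Ccl4* were found in the same cells more often than the product of their shares. In thinned NK cells both were present in 8.29%, 7.15% and 1.19%, which is 2.37, 2.51 and 7.03 times the product. Of all NK cells with *Ccl3*, 81.8%, 77.6% and 62.7% also had *Ccl4*, whereas of those with *Ccl4* only 30.1%, 27.7% and 16.2% had *Ccl3*. The ratio was 3.09, 2.54 and 2.64 in CD8 T cells and 3.61, 2.69 and 3.01 in Treg cells, so it was above 2 in each of these classes and libraries. Within *Havcr2*-positive CD8 T cells alone it was 2.00, 2.00 and 2.00 and within *Havcr2*-negative cells 3.28, 2.59 and 3.52. The ratio cannot exceed 1 over the larger of the single shares, so it has more room where *Ccl4* is rarer. *Ccl4* was rarer in red than in green NK cells. By mean thinned share it was in 34.2% of *Havcr2*-positive and 17.2% of *Havcr2*-negative cells. The size of the ratio is therefore not compared between these groups. γδ T cells had at most 5 cells with both in a library and give no usable ratio. *Ccl5* and *Xcl1* gave ratios near 1 in NK cells (0.979, 0.980 and 1.01) and below 1 in CD8 T cells (0.949, 0.984 and 0.789). Most thinned green NK cells held each of these 2 genes, which keeps the ratio near 1 there, so it does not show independence. Pearson's r between them over NK cells was -0.153, -0.161 and -0.0200. *Ccl4* with *Ccl5* gave 1.13, 1.13 and 2.17 in NK cells and *Ccl3* with *Ccl5* 1.15, 1.16 and 2.50. A ratio with *Ccl5* cannot be large in the green libraries, where *Ccl5* was in 83.3% and 80.1% of thinned NK cells. In red NK cells, of which 24.8% had *Ccl5*, *Ccl5* was found with *Ccl3* and with *Ccl4* more often than independence gives. *Ccl1* in CD8 T cells went with *Ccl3* (3.53, 2.57 and 2.42) and with *Xcl1* (2.43, 2.02 and 1.58). *Ccl1* with *Ccl5* in NK cells was below 1 in each library (0.856, 0.912 and 0.566). That ratio rests on a mean *Ccl1* share of 1.42% of thinned NK cells, in Kaede-green 2 below that of B cells. No exclusion of the 2 genes is read from it. Cells of 1 library share its depth and free RNA, and these ratios carry no test.

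**Figure D5:**
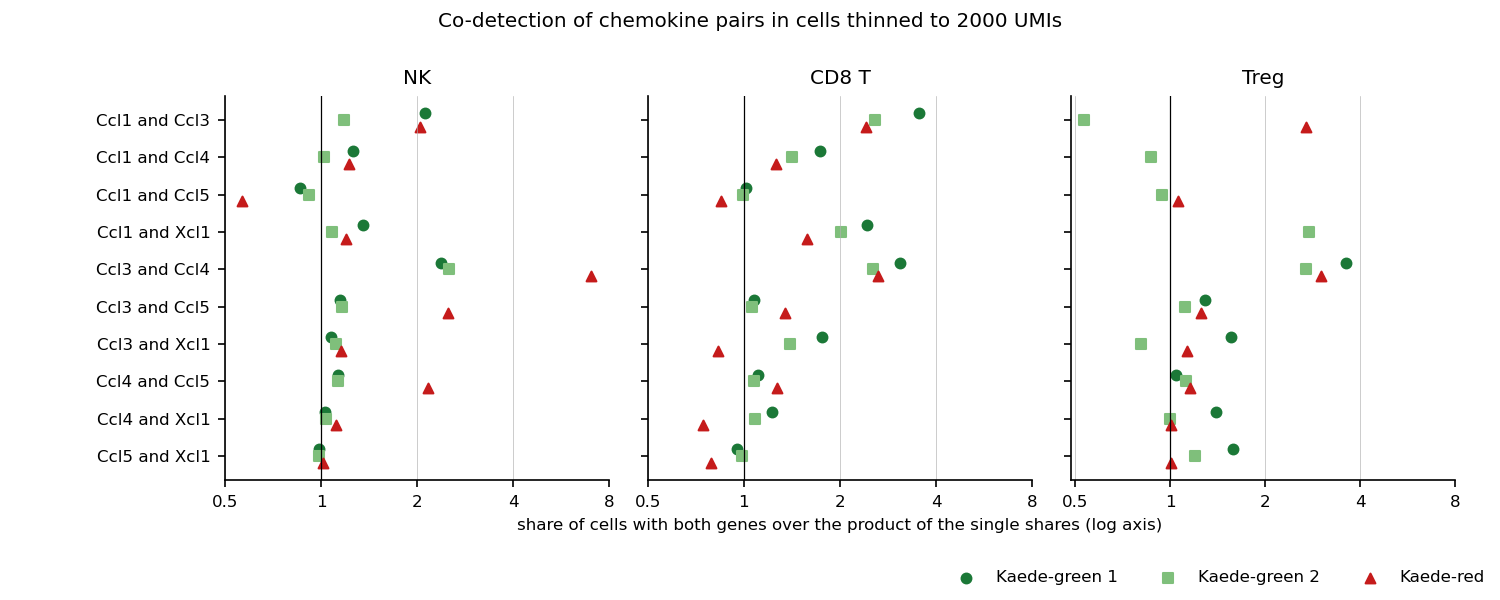
Ratio of the share of thinned cells (2000 UMIs) with both genes of a pair to the product of their single shares, by library, for NK, CD8 T and Treg cells, drawn for pairs with at least 5 cells with both. A ratio of 1 is independence. *Ccl3* with *Ccl4* lies above 2 in all 3 classes and libraries. It reaches 7.03 in Kaede-red NK cells, where *Ccl4* was rarer and the ratio can be larger.

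The genes whose level was most like that of each chemokine were sought over 18 sums (6 classes without common cells in 3 libraries) among 7038 genes, by Pearson's r of log2(CPM + 1). The sums of 1 library share its depth and colour, and the values are a description. *Ccl3* and *Ccl4* were each other's nearest gene (r = 0.95). *Xcl1* was nearest to *Lilrb4a* (r = 0.94), which encodes an inhibitory receptor, then *Cemip2*, *Itgax*, *Anxa1* and *Rpl10*. *Ccl1* was nearest to *Ash2l* (0.89), *Crtam* (0.88), *Serpine2*, *Nrgn* and *Klrc1*, and *Ccl5* to *Glipr2* (0.85), *Ikzf1*, *Nsmaf*, *Prkcq* and *Ptpn22*. Across single NK cells, among 7480 genes, *Ccl3* and *Ccl4* again led each other's list, with r of 0.573, 0.603 and 0.503. *Ifng*, the gene of interferon-γ, came next for both (lowest r of the 3 libraries 0.256 and 0.309). *Ccl4* also went with *Ccl5* (0.289), *Btg1* (0.269) and the activation-induced receptor gene *Nr4a1* (0.265). *Ccl5* went with *Btg1* (0.501), *Ifngr1* (0.401), *Pim1* (0.360), *Junb* (0.339) and *Ptprc* (0.337), *Xcl1* with *Bcl2a1b* alone (0.234), and *Ccl1* with 0 genes at 0.2 or more in each library. Between *Ccl5* and *Xcl1* r was -0.153, -0.161 and -0.0200.

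Of 5 receptors of these ligands, 4 were tested between CD8 T and Treg cells, and 0 were higher and 3 lower in CD8 T cells, where 24.6% of all genes differed in either direction. *Ccr8*, the receptor of CCL1, was 32.8, 23.5 and 23.9 CPM in Treg cells and 10.3, 9.48 and 7.64 CPM in CD8 T cells (log2 fold change of CD8 T against Treg -1.42 ± 0.21, edgeR adjusted p = 0.000464), and *Ccr1* was 31.2, 29.9 and 56.3 CPM in Treg cells against 2.37, 5.15 and 9.38 CPM (-2.70 ± 0.38, edgeR adjusted p = 0.000336). So CD8 T cells held the most *Ccl1* and Treg cells the most *Ccr8* of the 4 classes. ILC-like cells had 4.42, 3.44 and 6.16 CPM of *Ccr8* against 0.38, 0.82 and 0.59 CPM in the other NK cells (2.91 ± 0.44, edgeR adjusted p = 0.000921). *Xcr1* was at or below 1.87 CPM in NK, CD8 T and Treg cells. *Ackr2*, which encodes a scavenging receptor, was at most 0.036 CPM in the 4 classes. Of the 5 receptors, 4 were tested between the 4 classes, and 3 were higher and 1 lower in Treg than in γδ T cells (15.4% and 15.6% of all genes).

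Among 35 other chemokine genes *Cxcl10* alone reached 50 CPM in all 3 libraries of a class. *Cxcl10* is induced by interferon and acts on CXCR3. It was highest in γδ T cells, at 1541, 1155 and 1604 CPM, against 601, 661 and 356 CPM in NK cells, 475, 250 and 343 CPM in Treg cells and 283, 212 and 167 CPM in CD8 T cells. γδ T cells thus held the highest *Cxcl10* level and were the lowest of the 4 classes by mean level for *Ccl1*, *Ccl3* and *Ccl4*. *Cxcl10* also stood at 651, 580 and 623 CPM in cells that met none of the 4 class rules and were not B cells. The part of free RNA in the *Cxcl10* values was not tested.

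A list of 28 activation and immediate early genes was set beside the chemokines. Between *Itga1*-positive and *Itgam*-positive NK cells 0 of the 28 were higher and 21 lower (17.7% and 16.3% of all genes), with a median log2 fold change of -0.86 against -0.02 over all genes, and *Ifng* (87.3, 97.1 and 56.4 against 331, 305 and 142 CPM) was lower by -1.58 ± 0.11 (edgeR adjusted p = 1.48e-05). *Nr4a1* was lower as well (-1.03 ± 0.11, edgeR adjusted p = 0.000100). Between *Havcr2*-positive and *Havcr2*-negative CD8 T cells 4 were higher and 14 lower (14.2% and 14.3% of all genes), the 4 being *Ifng* (1.40 ± 0.14, edgeR adjusted p = 0.000190), the transcription factor gene *Irf8* (1.03 ± 0.09, edgeR adjusted p = 0.000129), *Ier3* and *Jund*. The early activation marker *Cd69* was lower there (-0.83 ± 0.07, edgeR adjusted p = 0.000115), although *Ccl3*, *Ccl4* and *Ccl1* were higher. NK against CD8 T cells gave 8 higher and 2 lower (11.9% and 12.9% of all genes), and ILC-like against other NK cells 2 higher and 5 lower (2.7% and 2.63%).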

How the data were processed

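Single-cell RNA libraries of 2 Kaede-green and 1 Kaede-red sort were analyzed. The authors deposited raw UMI counts per gene and cell barcode. The submitters' processing notes name Cell Ranger 6.1.2 and the mm10 build, the file headers Cell Ranger 6.0.1, and the study processed the reads before filtering. Every one of the matrices belonged to 1 labeled library, and 0 columns had no sample.

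A cell had to show between 1000 and 6000 genes with less than 7.5% of its UMIs from mitochondria, and subclusters with high simulated-doublet scores were removed (289, 461 and 335 cells). Total UMIs in the deposited matrices were 87193225, 129438292 and 175848894. Classes were set by UMI thresholds, a class-defining gene was left out of counts of called genes, and UMIs were summed per library and class. Comparisons of classes used edgeR 4.0.16 (R 4.3.3; TMM factors, filterByExpr, quasi-likelihood test, library as a block because classes of 1 library come from the same tumors, Benjamini-Hochberg threshold 0.05), tested on simulated data. DESeq2 1.42.0 was an alternative. Library blocks pair the classes by construction. The p-values measure the spread of the differences between classes over 3 libraries, or over 2 where 1 was left out. The block removes the level of each library. A class difference that changes with Kaede colour is part of that spread. Mice per library are not given. Colours had no test. CPM is UMIs of a gene per 1000000 UMIs of its class, and 0.5 UMI was added for log2 ratios, which were compared over genes of at least 10 CPM on average. Intervals (exact Poisson and binomial, 95%) cover counting error only. Thinning used the hypergeometric expectation at 2000 UMIs (alternative 3000) in Python 3.11.15 with numpy 2.4.6, pandas 2.3.3 and scipy 1.17.1.

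The 5 genes, the receptor, chemokine and activation lists and the tests were chosen with earlier results of these data known. Genes named were the members, 5 receptors, other chemokine genes of at least 50 CPM in all libraries of a class, the activation list by counts with examples named after their values were seen, and the 5 genes most like each member (over sums, genes of at least 10 CPM on average; over NK cells, genes in at least 5% of cells and r of at least 0.2 in each library). Alternatives covered size factors, filters, the block, single libraries, doublets, cell limits, class overlap, the NK rule and UMIs per cell. Positions are from GENCODE M21 and promoters from RefSeq (GRCm38.p6). Sequences of the promoters of *Ccl4* and *Ccl5* and of the proteins were not used here. A receptor and a marker of the lists are not reported here.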

Additional observations from a re-analysis of the deposited data

Results flagged for a closer look

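*Ccl4* differed in direction between classes in the comparison of colours. The log2 ratio of Kaede-red to the mean of the Kaede-green libraries was -2.94 in NK cells and -2.81 in γδ T cells, with red below both green libraries, and 0.81 in Treg cells, with red above both. The difference between the classes was not tested, and the Treg value was not beyond the green difference without the cell with the most UMIs in each library.

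Cells that met none of the 4 class rules and were not B cells, which enter no comparison, also held the 5 transcripts. Their mean level over the 3 libraries was 3599 CPM for *Ccl5*, 880 CPM for *Xcl1*, 458 CPM for *Ccl4*, 68.5 CPM for *Ccl3* and 14.8 CPM for *Ccl1*, each above the green B-cell level of the same gene. These cells, counted without the B cells, were 4072, 3883 and 2421 in the 3 libraries.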

How the results depend on the processing

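Of 525 refits of a gene's log2 fold change, 442 kept their direction and side of the threshold, 47 lost the call, 12 gained it and 24 turned in direction. Leaving out 1 library at a time moved the number of genes called to 1565 to 4662 for NK against CD8 T cells (3104 with all libraries), 2865 to 6058 for NK against Treg (4955), 2186 to 3303 for NK against γδ T (3826), 1520 to 3963 for CD8 T against Treg (3084), 1667 to 3248 for CD8 T against γδ T (3446), 1875 to 3949 for Treg against γδ T (3874), 399 to 1169 for ILC-like against other NK (600), 1449 to 3270 for *Havcr2* (3434) and 1735 to 3387 for *Itga1* against *Itgam* (3189). Without the replicate block, that is without pairing by library, 100 genes were called for ILC-like cells and 188 for *Havcr2*, where pairing by library is part of the design, and in the same fits *Ccl5* was 0.15 for NK against CD8 T and *Ccl4* 0.28 for NK against Treg. DESeq2 called 2125 genes for *Havcr2* and 1986 for *Itga1* against *Itgam*, a filter of 1 UMI 902 for ILC-like cells, a fit of only the 2 classes 2813 for NK against Treg (*Ccl4* 0.0077), and keeping cells of more than 1 class 2154 for CD8 T against γδ T.

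Directions that turned belonged to uncalled values, except the called *Ccl1* of NK against γδ T cells (-0.030 with cells of more than 1 class kept). With those cells kept, *Xcl1* of CD8 T against γδ T was -0.28, *Ccl1* of Treg against γδ T -0.41, and *Ccl3* of red against green γδ T cells 0.52. With *Cd3e* at 0 in the NK rule, *Xcl1* of CD8 T against γδ T was -0.064, *Ccl1* of Treg against γδ T -0.095 and *Ccl1* of ILC-like cells -0.30. With doublets kept, *Ccl1* of Treg against γδ T was -0.95. Over fits without 1 library, log2 fold changes that turned ran from -0.39 to 0.72 (*Ccl4*) and -0.79 to 0.34 (*Ccl5*) for NK against CD8 T, from -0.68 to 1.39 (*Ccl3*) and -0.93 to 1.07 (*Ccl4*) for NK against Treg, from -0.63 to 0.35 (*Ccl4*) for CD8 T against Treg, from -0.27 to 0.64 (*Xcl1*) for CD8 T against γδ T, from -1.58 to 1.81 (*Ccl1*) and -1.07 to 0.38 (*Ccl5*) for Treg against γδ T, from -0.28 to 1.79 (*Ccl1*) for ILC-like cells, from -0.67 to 0.22 (*Xcl1*) for *Havcr2*, and from -0.027 to 0.50 (*Xcl1*) for *Itga1* against *Itgam*. The cause was not tested.

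By colour, the members beyond the green difference in Treg cells were 1 as reported, 0 by UMIs per cell, 0 without cell limits, 0 with doublets kept, 0 without the cell with the most UMIs (an alternative chosen after seeing the data) and 2 with cells of more than 1 class kept. By UMIs per cell, *Xcl1* of red against green ILC-like cells was 0.43. On that scale *Xcl1* was higher in red NK cells beyond the green difference, and in CD8 T cells it was no longer beyond it. Thinned to 3000 UMIs, the mean ratio of *Ccl3* with *Ccl4* in CD8 T cells was 2.39 in place of 2.76. A single Kaede-red library, 131 γδ T cells in 1 library and *Ccl1* counts of 3 to 10 UMIs in γδ T cells set the limits of these values.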
